A study of Mus musculus with 8 samples.

Results

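The CD200 receptor family and its ligand were followed through bone marrow libraries of mice labelled WT and Mut. The 4 genes were found by symbol among the 37991 gene identifiers of a count table. They were Cd200r1 (ENSMUSG00000022667), Cd200r3 (ENSMUSG00000036172), Cd200r4 (ENSMUSG00000062082) and Cd200 (ENSMUSG00000022661). They were picked because 2 of the receptor genes were much higher in the Mut-labelled libraries. Their differences between WT and Mut-labelled libraries are therefore given as a description with no test. A further family member, Cd200r2 (ENSMUSG00000090176), had 0 and 5 counts in the WT mRNA libraries (replicates 1 and 2, here and below in that order) and 16 and 0 in the Mut-labelled ones. It had 0 counts in all total RNA libraries, and its counts are not followed further.

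The cells were Flt3- LSK cells, taken from the marrow of C57BL/6J mice; LSK stands for lineage-negative, Sca-1-positive and c-Kit-positive, a gate that keeps blood stem cells and their first descendants. WT samples were described as carrying floxed Runx1, and Mut samples as deficient in Runx1, a transcription factor of blood cell development. The sources used here give neither the Cre driver, nor the deleted part of the gene, nor the age of the animals. Each of the 4 samples, 2 WT and 2 Mut-labelled, was 24000 sorted cells, and by its name each was read as having given 1 library of polyA-selected RNA (mRNA library) and 1 of total RNA. No label says whether a group's samples were separate animals, so the p-values cover the spread among these samples alone, and that spread may be technical.

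CD200 is a membrane glycoprotein of the immunoglobulin superfamily, carried by lymphocytes, endothelium, neurons and other cells. It binds CD200R1 on myeloid cells, whose cytoplasmic tail recruits DOK adaptors and RasGAP and lowers the cell's activation. The related receptors CD200R3 and CD200R4 have short tails and signal through the activating adaptor DAP12 (gene Tyrobp), and CD200R3 is known as a surface protein of basophils and mast cells. Receptor families of this kind, in which close relatives carry inhibitory or activating signals, are called paired receptors.

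Gene counts were 35096252 to 37924699 per mRNA library and 967694 to 1218437 per total RNA library, in which ribosomal RNA took 93.3 to 94.5% of all counts. Levels are in CPM, counts scaled to a common library total after TMM scaling, which equalises libraries on the bulk of their genes. Runx1 was at 204 ± 5.34 CPM (SD, n = 2) in WT against 845 ± 136 CPM (SD, n = 2) in Mut-labelled mRNA libraries. A whole-gene count does not show whether a part of the gene is lost, so these higher values cannot check the label. The libraries are therefore called Mut-labelled throughout. Scaling to ERCC spike-in RNA, which was added to the purified RNA, lowered the median log2 fold change of all tested genes, to -0.38 from -0.01 for mRNA and to -1.10 from 0.00 for total RNA libraries. The spike-in share varied within groups, at 0.651% and 0.313% of gene counts in the WT mRNA libraries and 0.891% and 0.381% in the Mut-labelled ones. For total RNA the spike-in share was 0.414% and 0.564% in WT against 0.772% and 1.36% in Mut-labelled libraries, with no overlap of the groups. Differences below are thus relative to the bulk of genes. In sorted bulk samples, a change in the number of cells of a type and a change in RNA per cell cannot be told apart.

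Cd200r3 and Cd200r4, the DAP12-coupled receptors, were at about 1 CPM in WT mRNA libraries and far higher in Mut-labelled ones. Cd200r3 had 31 and 42 counts in the WT mRNA libraries and 962 and 1826 in the Mut-labelled ones, or 0.816 and 1.10 CPM against 27.5 and 49.9 CPM. Both Mut-labelled libraries were far above both WT libraries, and Mut-labelled replicate 2 was the higher of the pair. The means were 0.957 ± 0.199 CPM (SD, n = 2) and 38.7 ± 15.9 CPM (SD, n = 2), a log2 fold change of 5.33 with a standard error of 0.41, or 40.3-fold. Cd200r4 had 36 and 46 counts in WT and 1498 and 1698 in Mut-labelled mRNA libraries, or 0.948 and 1.20 CPM against 42.8 and 46.4 CPM. The Mut-labelled libraries were nearly level with each other for this gene. The means were 1.08 ± 0.180 CPM (SD, n = 2) and 44.6 ± 2.57 CPM (SD, n = 2), a log2 fold change of 5.37 with a standard error of 0.24, or 41.3-fold. By size of fold change the pair took places 51 (Cd200r4) and 52 (Cd200r3) from the top of the 17128 genes tested in the mRNA libraries.

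The 300-base windows around the RefSeq starts of the genes, 250 bases before to 50 after, are shown because Cd200r3 and Cd200r4 had like profiles over the libraries while Cd200 differed in the other direction. Windows are from RefSeq on GRCm38.p6, not the build of the count table, 5′ to 3′ on the gene's strand. They lie at chr16:44943428-44943727 (plus strand) for Cd200r3, chr16:44820478-44820777 (plus strand) for Cd200r4 and chr16:45409004-45409303 (minus strand) for Cd200. Cd200r1 was not matched in the table. Capitals mark matches to GATA motifs, searched on either strand as AGATAA or AGATAG and, in a related spelling of the same motif, as TGATAA or TGATAG.
Cd200r3: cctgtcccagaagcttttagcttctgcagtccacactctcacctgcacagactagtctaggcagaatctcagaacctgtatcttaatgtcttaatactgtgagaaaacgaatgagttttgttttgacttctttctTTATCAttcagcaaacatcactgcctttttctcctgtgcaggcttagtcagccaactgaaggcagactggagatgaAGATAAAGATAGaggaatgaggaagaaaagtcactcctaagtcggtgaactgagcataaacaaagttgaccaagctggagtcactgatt
Cd200r4: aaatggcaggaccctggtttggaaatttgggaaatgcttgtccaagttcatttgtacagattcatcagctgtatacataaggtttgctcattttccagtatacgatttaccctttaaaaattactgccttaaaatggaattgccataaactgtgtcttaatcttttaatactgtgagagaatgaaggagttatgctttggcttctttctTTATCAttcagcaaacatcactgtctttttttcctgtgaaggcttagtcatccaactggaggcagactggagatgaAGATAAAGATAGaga
Cd200: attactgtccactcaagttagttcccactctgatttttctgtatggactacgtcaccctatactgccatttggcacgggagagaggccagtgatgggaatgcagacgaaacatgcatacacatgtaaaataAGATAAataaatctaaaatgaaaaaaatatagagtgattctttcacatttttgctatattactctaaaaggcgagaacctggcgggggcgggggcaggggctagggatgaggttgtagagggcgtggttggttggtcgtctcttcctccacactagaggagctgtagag
The Cd200r3 and Cd200r4 windows held a shared stretch. Bases 70 to 225 of the Cd200r3 window aligned with bases 144 to 299 of the Cd200r4 window with no gap, and 140 of the 156 positions (89.7%) were identical. The longest identical run, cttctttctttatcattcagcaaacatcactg, was 32 bases long. Neither receptor window shared a run longer than 8 bases with the Cd200 window. Each of these receptor windows held 3 GATA matches, starting at bases 136, 212 and 218 for Cd200r3 and 210, 286 and 292 for Cd200r4. These are corresponding places of the aligned stretch, so the 2 windows are not separate cases. Relative to the RefSeq start, the matches began at -115, -39 and -33 for Cd200r3 and at -41, 35 and 41 for Cd200r4. The Cd200 window held 1 match. Of 32851 RefSeq promoter windows of this length, 29.8% held at least 1 such match and 1.76% held at least 3. The RUNX motif (TGTGGT or TGCGGT on either strand), found in 22.4% of all windows, had no match in these 3 windows. The ETS motif (CGGAAG or AGGAAG on either strand), found in 46.5% of all windows, had 1 match in the Cd200r3 window, none in that of Cd200r4 and 1 in that of Cd200. The window of the neighbouring receptor gene Cd200r2, not printed here, held 1 RUNX match and no GATA or ETS match. No motif overlapped another, and a match or its absence describes only the letters of these windows.

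Cd200r1, the inhibitory receptor for CD200, was detected in both groups and was higher in the Mut-labelled libraries by a smaller factor. It had 410 and 490 counts in WT and 978 and 1323 in Mut-labelled mRNA libraries, or 10.8 and 12.8 CPM against 27.9 and 36.2 CPM. As for Cd200r3, Mut-labelled replicate 2 was the higher, and both Mut-labelled libraries were above both WT ones. The means were 11.8 ± 1.42 CPM (SD, n = 2) and 32.1 ± 5.82 CPM (SD, n = 2), a log2 fold change of 1.44 with a standard error of 0.22, or 2.72-fold, in place 624 from the top.

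Cd200, the ligand, differed in the other direction. It had 306 and 302 counts in WT and 45 and 127 in Mut-labelled mRNA libraries, or 8.06 and 7.90 CPM against 1.29 and 3.47 CPM. The WT libraries were level, and the Mut-labelled libraries differed from each other by more than the WT pair. The means were 7.98 ± 0.115 CPM (SD, n = 2) and 2.38 ± 1.55 CPM (SD, n = 2), a log2 fold change of -1.74 with a standard error of 0.50, or 3.35-fold higher in WT. It took place 827 from the bottom. The value rested on which Mut-labelled library was kept, at -1.20 without Mut-labelled replicate 1 and -2.62 without replicate 2. For none of the 4 genes did the WT and Mut-labelled ranges overlap, but with 2 libraries a group unchanged genes can separate too. The share of all tested genes without overlap is not given here. In this comparison 3.64% of the 17128 tested genes were called by edgeR at an adjusted p under 0.05 (1.75% higher and 1.89% lower), but the 4 genes were chosen on it and nothing is read from their count.

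**Figure D1:**
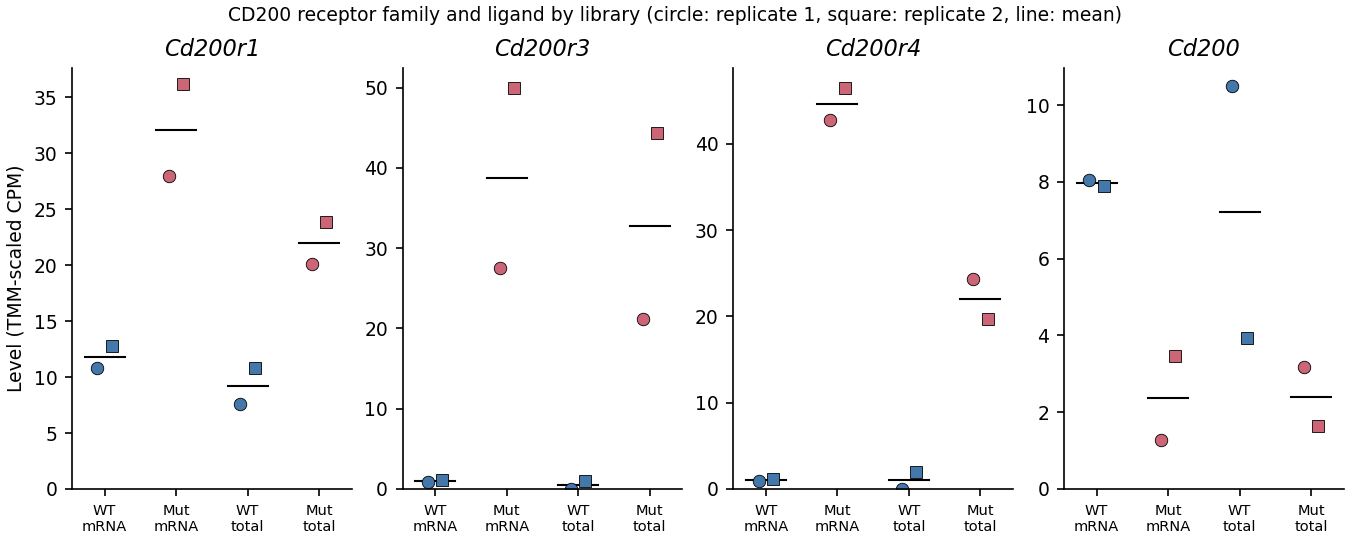
Level of each gene in TMM-scaled CPM (linear axes with a scale of their own per gene) in the 8 libraries; blue marks WT, red Mut-labelled, circles replicate 1, squares replicate 2 and lines the group means. Cd200r3 and Cd200r4 lay at or under 1.97 CPM in all WT libraries and at or above 19.7 CPM in all Mut-labelled ones, and Cd200 was lower in both kinds of Mut-labelled library.

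The total RNA libraries, a further measurement of the same sorted samples and not new replicates, held few counts of these genes and showed the same directions. Cd200r3 had 0 and 1 counts in WT and 20 and 54 in Mut-labelled libraries, or 0 and 0.984 CPM against 21.1 and 44.4 CPM. As in the mRNA libraries, Mut-labelled replicate 2 was higher than replicate 1. Summed over libraries and scaled for their size, the ratio was 70.6, with an exact 95% counting interval of 12.3 to 2825. A count of 0 in WT replicate 1 allows up to 3 counts.
Cd200r4 had 0 and 2 counts in WT and 23 and 24 in Mut-labelled total RNA libraries, or 0 and 1.97 CPM against 24.3 and 19.7 CPM. The ratio was 22.4, with an interval of 5.87 to 190.5. Here, unlike Cd200r3, the Mut-labelled libraries were close to each other.
Cd200r1 had 8 and 11 counts against 19 and 29, or 7.64 and 10.8 CPM against 20.1 and 23.8 CPM, a ratio of 2.41 (1.39 to 4.34). Under spike-in scaling its log2 fold change here was 0.14, against 1.25 under TMM scaling. Cd200 had 11 and 4 counts against 3 and 2, or 10.5 and 3.94 CPM against 3.17 and 1.64 CPM. Its ratio of WT over Mut-labelled was 3.15 (1.09 to 11.1). Groups did not overlap for any of the 4 genes here either, again without a share of all genes beside it. This comparison called 4.23% of 10546 tested genes. The Cd200 values in this kind of library were set by 20 counts in all, and the gene did not pass the filter on low counts. The intervals cover counting error only.

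Whether the difference between groups depended on the kind of library was tested over all 8 libraries, on the log2 scale, as total RNA fold change minus mRNA fold change. The interaction was -0.14 for Cd200r1 (95% interval -1.13 to 0.85) and 0.16 for Cd200 (-2.06 to 2.38). It was 0.80 for Cd200r3 (-2.39 to 3.98) and -0.83 for Cd200r4 (-3.06 to 1.39). All 4 had an adjusted p of 0.999946 in edgeR's quasi-likelihood test. The intervals of Cd200r3, Cd200r4 and Cd200 are wide enough to hold several-fold differences, so like behaviour is not shown. Of 17416 genes in this test, edgeR called 0 (0%), with 686 at an unadjusted p under 0.05, and DESeq2 called 18. The overall difference between kinds of library, total RNA minus mRNA and averaged over groups, was -0.28 for Cd200r1 (-0.77 to 0.21), -0.43 for Cd200r3 (-2.02 to 1.15), -0.42 for Cd200r4 (-1.42 to 0.58) and 0.08 for Cd200 (-1.03 to 1.19). None of the 4 passed the test, at adjusted p of 0.422, 0.724, 0.568 and 0.931, in a comparison that called 15.1% of 17416 genes (7.49% higher and 7.64% lower in total RNA). At this depth no difference in their share of gene counts with and without polyA selection was detectable.

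Levels of different genes were compared per kilobase of exon, using merged exons of GENCODE M21 (3348 bases for Cd200r1, 5984 for Cd200r3, 2045 for Cd200r4 and 3321 for Cd200). In WT mRNA libraries Cd200r1 was highest at 3.53 ± 0.425 CPM per kb (SD, n = 2), followed by Cd200 at 2.40 ± 0.0347, Cd200r4 at 0.526 ± 0.0880 and Cd200r3 at 0.160 ± 0.0333. No neighbours in this order overlapped. In Mut-labelled mRNA libraries the order was Cd200r4 at 21.8 ± 1.26 CPM per kb (SD, n = 2), Cd200r1 at 9.57 ± 1.74, Cd200r3 at 6.47 ± 2.65 and Cd200 at 0.716 ± 0.466. Cd200r1 was above Cd200r3 within each Mut-labelled mRNA library, at 8.34 against 4.59 and 10.8 against 8.34 CPM per kb. The ranges of these genes nearly met, so with 2 libraries their order is only a description. The ligand thus moved from the middle of the order to its end. Per length, the most abundant receptor was the inhibitory one in WT and an activating one in Mut-labelled cells. This order rests on the merged exon lengths, and which transcripts were expressed was not examined. In raw counts the highest receptor in Mut-labelled mRNA libraries was Cd200r4 in replicate 1 (1498) and Cd200r3 in replicate 2 (1826).

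The makeup of the receptor pool within a library does not depend on scaling between libraries, but per kb it depends on the exon lengths used. In raw counts Cd200r1 made up 86.0% and 84.8% of the receptor counts in WT mRNA libraries and 28.4% and 27.3% in Mut-labelled ones. Cd200r1 made up 84.3% and 83.2% of the 3 receptors' counts per kb in the WT mRNA libraries and 24.6% and 25.8% in the Mut-labelled ones. The share of Cd200r4 was 12.1% and 12.8% in WT against 61.8% and 54.2%, and that of Cd200r3 was 3.57% and 3.99% against 13.6% and 19.9%. Replicates lay within a few percentage points of each other for Cd200r1 and further apart for the other receptors in Mut-labelled cells. In raw counts, Cd200r3 over Cd200r4 was 0.861 and 0.913 in WT and 0.642 and 1.08 in Mut-labelled mRNA libraries. The WT values lay between the Mut-labelled ones. Both genes differed about 40-fold between groups and were picked for that rise, so ratios of similar size are only a description. In total RNA, from few counts, the ratio was 0.5 in WT replicate 2 and 0.870 and 2.25 in Mut-labelled libraries. WT replicate 1 had no Cd200r4 counts there.
Summed counts of Cd200r1, Cd200r3 and Cd200r4 over Cd200 counts were 1.56 and 1.91 in the WT mRNA libraries and 76.4 and 38.2 in the Mut-labelled ones. This sum covers the receptor family and does not say which of its members bind CD200. With Cd200r1 alone the ratio to its ligand was 1.34 and 1.62 in WT against 21.7 and 10.4. In the total RNA libraries receptors over ligand came to 0.727 and 3.50 in WT against 20.7 and 53.5, from 2 to 11 ligand counts per library. WT and Mut-labelled libraries were separate in each of these receptor-to-ligand ratios. The genes in them were picked on the difference between these groups, so the separation is only a description.

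**Figure D2:**
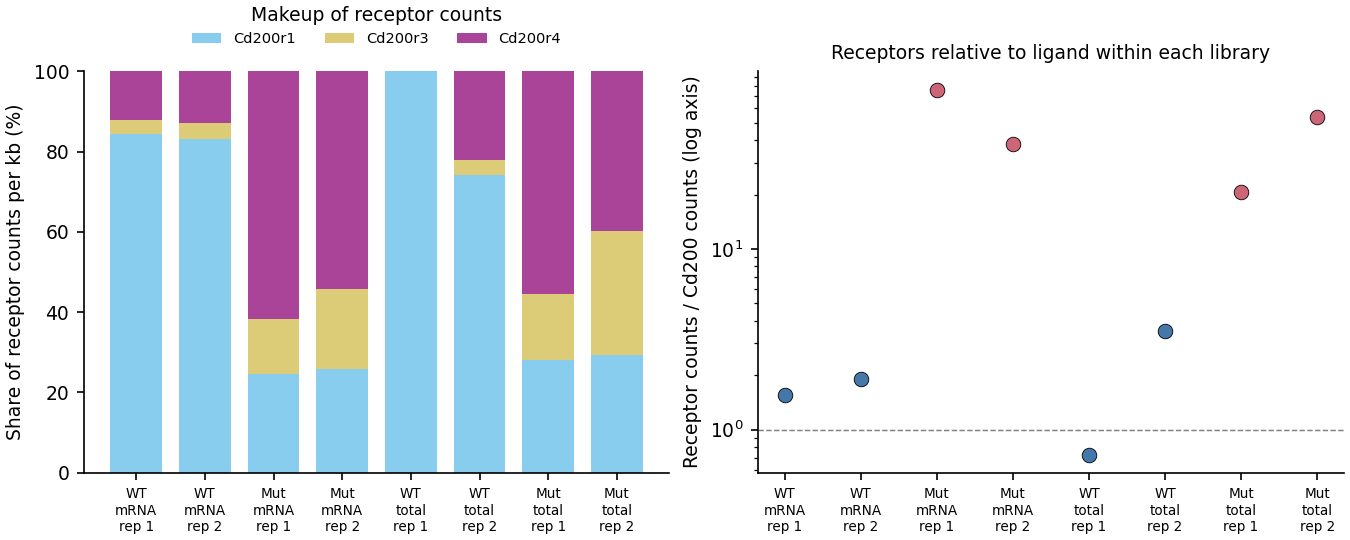
Left, stacked bars of the share of each receptor in the 3 receptors' counts per kb of exon (percent) in each library; right, summed receptor counts over Cd200 counts in each library on a log axis, blue for WT and red for Mut-labelled, with a dashed line at equal counts. Cd200r1 filled 74.2 to 100% of the bar in WT libraries and 24.6 to 29.4% in Mut-labelled ones, and the receptor-to-ligand ratio was at most 3.50 in WT and at least 20.7 in Mut-labelled libraries.

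Reads shared by near-identical family members could blur these values. In GENCODE M21 transcripts, Cd200r3 shared no 50-base stretch with any of the others. Cd200r4 shared 40 such stretches with Cd200r1, which is 1.96% of those of Cd200r4 and 1.16% of those of Cd200r1, and 61 (2.99%) with Cd200r2. The sources used here do not say how multiply mapped reads were counted.

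The receptor genes lie side by side on chromosome 16 in the order Cd200r1, Cd200r4, Cd200r2, Cd200r3, and Cd200 follows after 4 other protein-coding genes. Of 24 neighbours around the receptor cluster and Cd200, 19 were tested in the mRNA libraries. Of these, 0 were called higher and 1 lower, against 1.75% and 1.89% of all tested genes. At such shares a list of 19 genes would hold few calls or none, so the count does not set the neighbours apart. Their median log2 fold change was -0.06, against -0.01 for all tested genes. The gene just before the cluster, Gtpbp8, a GTP-binding protein gene, had a log2 fold change of 0.02, at 30.7 and 30.1 CPM in WT against 28.3 and 33.3 CPM in Mut-labelled libraries. Ccdc80, just after the cluster, was under 1 CPM in every mRNA library. Between the cluster and Cd200, Slc35a5 (0.06) and the autophagy gene Atg3 (0.09) had log2 fold changes close to 0. Btla, an inhibitory receptor of lymphocytes that lies next to Cd200, was at 1.61 and 3.22 CPM in WT against 0 and 1.07 CPM in Mut-labelled libraries, with a log2 fold change of -2.16 and a standard error of 1.40 (edgeR adjusted p = 0.587).
The called neighbour was Gcsam, a signalling adaptor gene known from germinal centre B cells, beyond Cd200. It fell from 11.7 and 12.2 CPM to 0.886 and 0.848 CPM, a log2 fold change of -3.78 (standard error 0.29, edgeR adjusted p = 0.00579). Of the other neighbours tested, the highest was Tmprss7, a membrane serine protease gene, at 1.84 (adjusted p = 0.0771), followed by Spice1, a centriole gene, at 0.62 (adjusted p = 0.104). Gramd1c, Atp6v1a, Naa50, Usf3, Nepro, BC016579, Abhd10, Phldb2 and Plcxd2 had log2 fold changes of -0.28 to 0.22, and Sidt1 (-1.34) and Boc (-0.69), both under 2 CPM in the mRNA libraries, did not pass the test either.

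**Figure D3:**
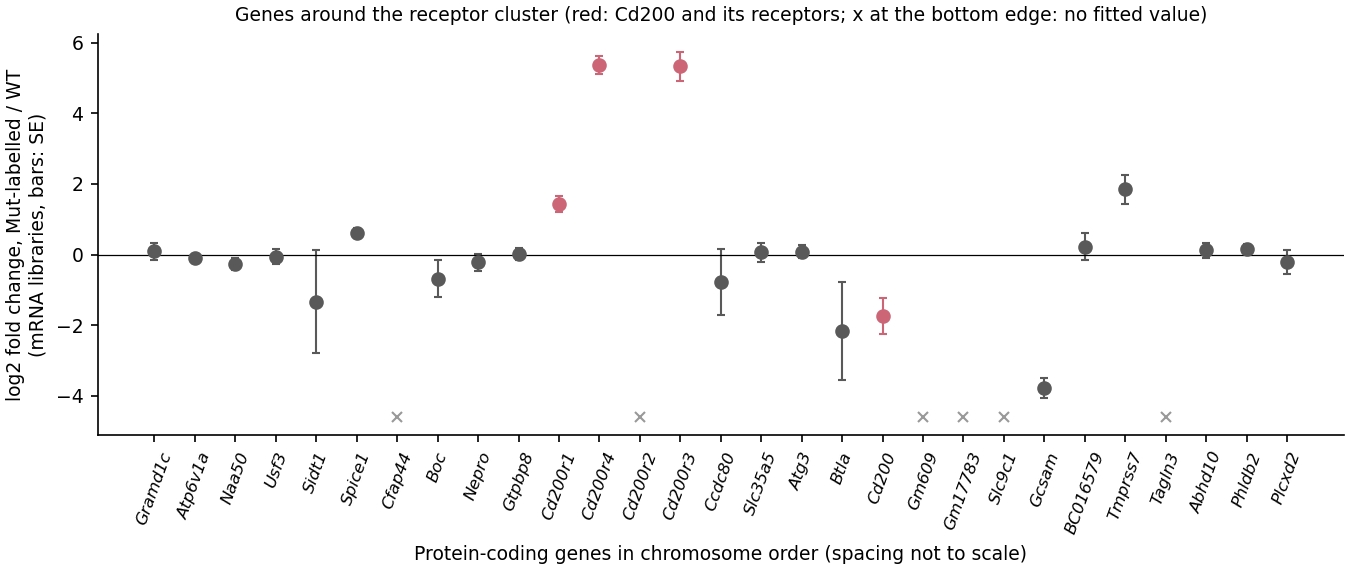
Log2 fold change of Mut-labelled over WT in the mRNA libraries, with standard errors as bars, for protein-coding genes in chromosome order around the cluster (spacing not to scale); red marks the CD200 family and crosses at the bottom edge mark genes with no fitted value. Cd200r4 and Cd200r3 stand at 5.37 and 5.33 beside Gtpbp8 at 0.02, and Gcsam is the lowest at -3.78.

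Genes that act downstream of the inhibitory receptor were read as a list. Of 14 genes of CD200R1 signalling, all tested in the mRNA libraries, 1 was called higher and 0 lower, against 1.75% and 1.89% of all tested genes. A list of 14 genes would hold few calls or none at such shares, so the count does not set it apart. Its median log2 fold change was 0.09. The called gene was Dok3, an adaptor that dampens immune receptor signals, at 24.2 and 21.6 CPM in WT against 51.8 and 71.8 CPM in Mut-labelled libraries (log2 fold change 1.43, standard error 0.21, edgeR adjusted p = 0.0265). Dok2, the adaptor known to bind the CD200R1 tail, was at 53.2 and 41.9 CPM against 87.6 and 81.9 CPM. It missed the threshold (log2 fold change 0.83, adjusted p = 0.0553), and it is named outside the rule for named genes, after its values were seen. The most abundant members, Csk, a kinase that restrains Src-family kinases, and Rasa3, a Ras GTPase-activating protein, had log2 fold changes of 0.09 and 0.25 and were not called. Under spike-in scaling no gene of this list, of the neighbours or of the lists that follow on signalling, receptors and ligands was called in mRNA libraries. From total RNA, edgeR called 0 of the 14, of which 2 had an unadjusted p under 0.05, and DESeq2 likewise called 0.

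For genes of the activating route, the sign depended on the scaling, and under spike-in scaling on the kind of library as well. Log2 fold changes in the mRNA libraries were positive for 21 of 21 under TMM scaling (19 to 21 with any 1 library left out) and for 12 of 21 under spike-in scaling. In total RNA they were positive for 17 of 18 and for 4 of 18. Of the 21 genes of the DAP12 and Fc receptor gamma chain pathway, 5 were called higher and 0 lower in the mRNA libraries, against 1.75% and 1.89% of all tested genes, with a median log2 fold change of 0.48. The linker Lat, which gathers signalling proteins at the membrane, rose from 52.9 and 52.9 CPM to 142 and 146 CPM (log2 fold change 1.45, standard error 0.12, edgeR adjusted p = 0.00653). The replicates of Lat were close, and it kept its call when any 1 library was left out.
The adaptor Lcp2 (1.04) and the kinases Btk (0.88) and Lyn (0.84) were also called. These 3 lost the call without WT replicate 1 (adjusted p of 0.0529, 0.0799 and 0.0802) and without WT replicate 2 (0.0557, 0.136 and 0.101). Syk, the kinase that DAP12 recruits, and the phospholipase Plcg2 were the most abundant and had log2 fold changes of 0.48 and 0.39 without a call.
Tyrobp, which encodes DAP12 itself, was at 22.3 and 14.5 CPM in WT against 38.4 and 32.0 CPM in Mut-labelled libraries (0.94, adjusted p = 0.137). Fcer1g, the Fc receptor gamma chain, was at 15.8 and 13.1 CPM against 20.7 and 15.4 CPM (0.32, adjusted p = 0.673). Both are named as the direct partners of activating receptors, after their values were seen, and neither passed the test. In the total RNA libraries 18 of the list were tested and 5 were called higher and 0 lower, against 2.55% and 1.68% of all tested genes.

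Other paired receptors of myeloid cells were compared in the same way. Of 56 symbols, 48 were in the table and 40 were tested in the mRNA libraries, of which 6 were called higher and 0 lower, against 1.75% and 1.89% of all tested genes, with a median log2 fold change of 0.73. That median was 1.25 without WT replicate 1, 1.18 without Mut-labelled replicate 2 and 0.50 without Mut-labelled replicate 1, where 26 of 40 were positive in place of 33. Siglece, an inhibitory sialic acid receptor, rose from 0.211 and 0.183 CPM to 7.66 and 4.51 CPM (log2 fold change 4.93, standard error 0.48, edgeR adjusted p = 0.00943). Treml1, a receptor of platelet granules, rose from 11.6 and 11.0 CPM to 171 and 132 CPM (3.74, standard error 0.18, adjusted p = 0.0033). The C-type lectin receptors Clec4d (2.56) and Clec4e (2.33) and the inhibitory Fc receptor Fcgr2b (2.51) also rose, and Siglecf rose by 1.61, a call that was lost without Mut-labelled replicate 2 (adjusted p = 0.0687). The 2 most abundant genes of the list, Laptm5, which encodes a lysosomal membrane protein rather than a paired receptor, and Treml2, had values of 0.19 and 0.31 and were not called.

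Ligands of other inhibitory receptors took both directions. Of 16 such genes, 15 were tested in the mRNA libraries, and 5 were called higher and 0 lower, against 1.75% and 1.89% of all tested genes (median log2 fold change 0.43, with 8 positive and 7 negative). Cd274, which encodes PD-L1, rose from 33.8 and 45.5 CPM to 112 and 164 CPM (1.79, standard error 0.24, edgeR adjusted p = 0.0223). Pdcd1lg2, which encodes PD-L2, rose from 3.24 and 4.26 CPM to 12.8 and 20.2 CPM (2.14), a call that was lost without Mut-labelled replicate 2 (adjusted p = 0.0536). Cd52, whose product binds Siglec receptors, rose by 1.42, Nectin2, a ligand of TIGIT, by 1.32 and Vsir, which encodes VISTA, by 0.83.
Vsir lost its call without any 1 of the 4 libraries (adjusted p of 0.0509 to 0.147). Nectin2 lost it without WT replicate 1 (0.0702) or Mut-labelled replicate 2 (0.0681), and its log2 fold change was -0.45 in the total RNA libraries. Cd47, the ligand of SIRP alpha, and Lgals9 were the most abundant, with values of -0.04 and 0.43 and no call. From total RNA, 2 of 10 tested were called higher and 1 lower, against 2.55% and 1.68% of all tested genes. The 1 called lower was Cd24a, which encodes the Siglec ligand CD24 and is named after its values were seen. Its log2 fold change was -0.73 in total RNA libraries (edgeR adjusted p = 0.0489), a call lost without WT replicate 1 or Mut-labelled replicate 2. It was -0.81 in mRNA libraries (adjusted p = 0.0666), from 307 and 273 CPM to 185 and 146 CPM, the direction of Cd200.

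**Figure D4:**
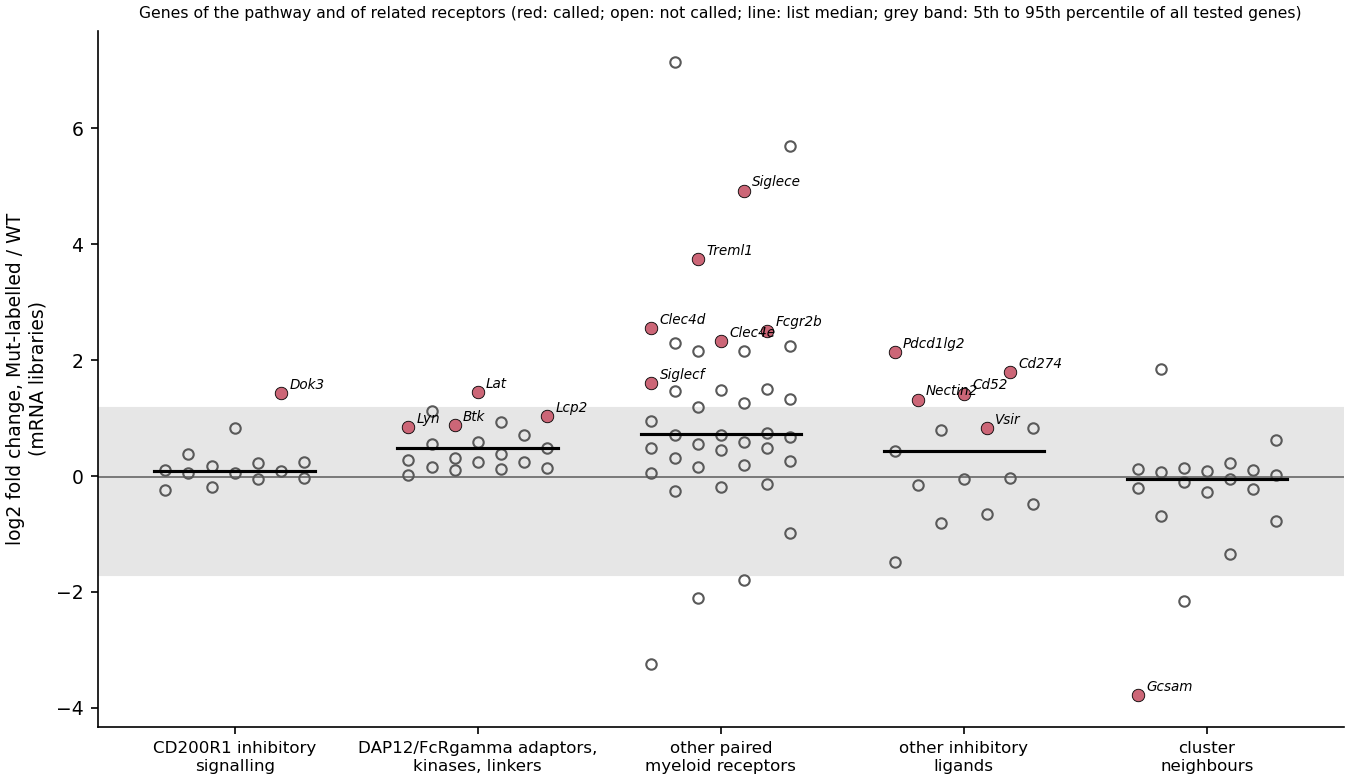
Log2 fold change of Mut-labelled over WT in the mRNA libraries for each tested gene of 5 lists; filled red points passed edgeR's test and are named, open points did not (1 gene is not drawn), thick lines are list medians, and the grey band spans the 5th to 95th percentile of all tested genes (-1.70 to 1.18). The medians run from -0.06 for the neighbours of the cluster to 0.73 for the other paired receptors, and the 2 highest open points had 0 or 1 counts per WT library.

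Profiles over the libraries were compared by the root mean square difference of log2 CPM (prior count 2), centred on each gene's mean over the 4 mRNA libraries. The gene closest to Cd200r3 among all tested genes was Cd200r4, at 0.269. Both were picked for being higher in Mut-labelled libraries, and the distance includes that same difference, so their closeness is only a description. Leaving out family members, the 5 closest to Cd200r3 were Gm15413 (0.344), Kcnk9 (0.433), Adamtsl1 (0.484), She (0.524) and Fgf10 (0.536). The 5 closest to Cd200r4 were Kcnk9 (0.263), She (0.420), Syt13 (0.426), Fgf10 (0.460) and Clec1b (0.496). Kcnk9 encodes a potassium channel, She an SH2-domain adaptor, Fgf10 a growth factor and Clec1b the platelet receptor CLEC-2. Of these, She and Clec1b were the most abundant, at 0.895 and 0.784 CPM in WT against 22.6 and 20.1 CPM in Mut-labelled libraries for She, and 1.03 and 1.96 CPM against 38.6 and 28.6 CPM for Clec1b. The others were under 6 CPM in every mRNA library, where the prior count sets much of the distance. Under other prior counts, or over all 8 libraries, 0 or 1 of the 5 genes named for Cd200r3 and 0 to 2 of the 5 named for Cd200r4 were among the closest 5. Cd200r4 was again the closest gene to Cd200r3 over all 8 libraries and with a prior count of 5, and took place 8 with a prior count of 0.5. Seen from Cd200r4, Cd200r3 took place 2, behind Kcnk9, and place 1, 2 and 11 with a prior count of 5, over all 8 libraries and with a prior count of 0.5.

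Markers of cell types that carry these receptors differed between groups as well. The counts called in the marker lists below are from the mRNA libraries, where 1.75% of all tested genes were called higher and 1.89% lower. Of 13 mast cell markers, 8 were tested and 3 were called higher and 0 lower, while DESeq2 called 4 higher and 2 lower. Their summed level was 956 to 997 CPM in WT and 1646 to 1985 CPM in Mut-labelled mRNA libraries, most of it Kit, which also defines the sorted gate. The called genes were Cpa3, a mast cell carboxypeptidase, at 28.7 and 19.4 CPM in WT against 455 and 513 CPM in Mut-labelled libraries, the IL-33 receptor gene Il1rl1 (log2 fold change 3.19) and the histamine-forming enzyme gene Hdc (1.79). Ms4a2, the beta chain of the IgE receptor, was at 12.1 and 8.47 CPM against 34.8 and 103 CPM (adjusted p = 0.0571) and, like Cd200r3, was higher in Mut-labelled replicate 2. Of proteases of mature mast cells, Cma1 did not pass the test (adjusted p = 0.0874), Mcpt4 and Tpsb2 did not pass the low-count filter, and the WT levels came mainly from WT replicate 1. Cma1 was at 5.11 and 0.627 CPM in WT and had 0 counts in both Mut-labelled libraries, Mcpt4 had 0 counts in all but 1 WT library, and Tpsb2 was at 7.08 and 0.235 CPM against 0 and 0.0273 CPM.
Of 12 basophil markers, all tested, 2 were called higher (Cpa3 and Hdc, shared with the mast cell list) and 2 lower, with summed levels of 840 to 914 CPM in WT and 1258 to 1606 CPM in Mut-labelled libraries. Those called lower were the basophil proteases Prss34, from 68.8 and 44.3 CPM to 0.0286 and 0 CPM, and Mcpt8, from 19.4 and 17.4 CPM to 2.31 and 1.64 CPM. Fcer1a, the IgE-binding chain, was at 2.002 and 1.44 CPM in the WT libraries, against 0 and 0.191 CPM. The part of these cell types in the values of Cd200r3 and Cd200r4 was not tested.
Of 9 eosinophil markers, 1 was called higher (Siglecf) and 3 lower (Prg2, Ear1 and Ear6, of which Ear6 lost its call without WT replicate 1, adjusted p = 0.0644). Summed levels were 195 to 227 CPM in WT and 66.4 to 116 CPM in Mut-labelled libraries. Of 12 neutrophil markers, 11 were tested and all 11 were positive, with 2 called higher, Retnlg and Cxcr2 (8 to 11 called with any 1 library left out). Their sums were 41.9 and 49.8 CPM in WT against 532 and 168 CPM in Mut-labelled libraries, with Mut-labelled replicate 1 the higher, the reverse of Cd200r3. Of 14 megakaryocyte markers, 5 were called higher and 1 lower, with sums of 936 to 1010 CPM against 2215 to 2420 CPM.
For cells that carry the ligand, summed levels were 32.5 to 50.2 CPM in WT and 32.97 to 40.1 CPM in Mut-labelled libraries for 8 B cell markers (edgeR called 0 of 7 tested, and 1 had an unadjusted p under 0.05). They were 33.6 to 35.5 against 13.6 to 14.6 CPM for 10 T cell markers (1 of 7 tested called, lower) and 692 to 704 against 678 to 697 CPM for 12 endothelial and stromal markers (2 called higher and 2 lower of 12 tested). Macrophage and dendritic cell markers, 19 in all, summed to 218 to 219 CPM against 165 to 186 CPM, with 1 called higher and 1 lower. Genes of the LSK gate, 8 in all, summed to 2348 to 2416 CPM against 2652 to 2689 CPM, with 1 called higher and 1 lower. No marker of these lists was at 0 in all mRNA libraries. The part of these cells in the values of Cd200 and Cd200r1 was not tested.

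**Figure D5:**
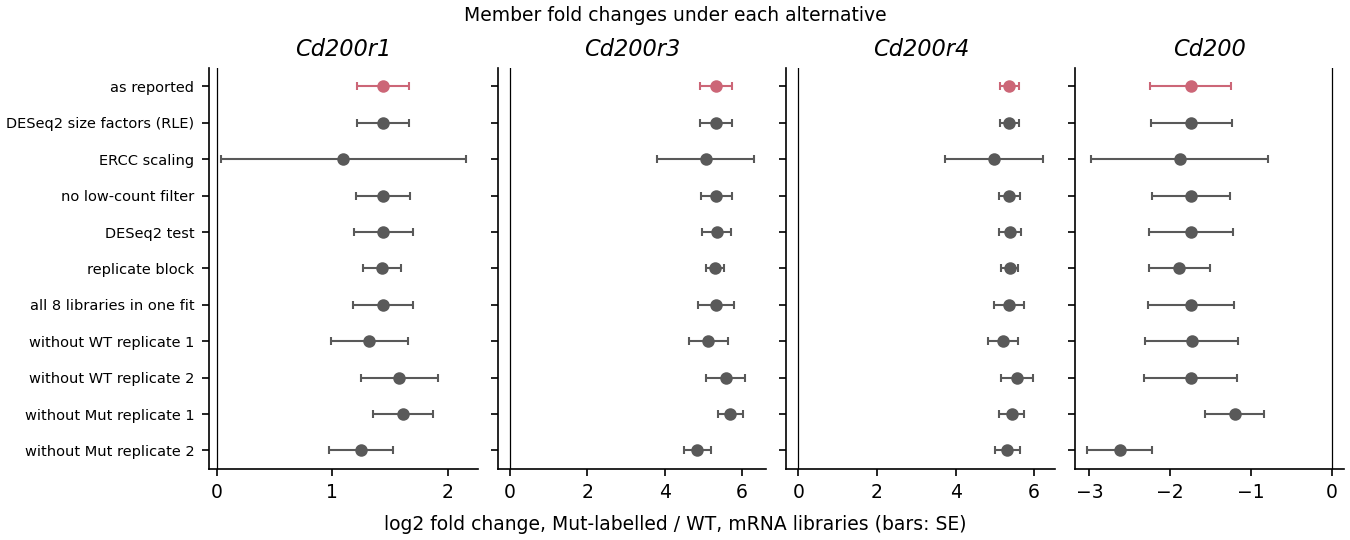
Log2 fold change of Mut-labelled over WT in the mRNA libraries, with standard errors as bars, for each of the 4 genes as reported (red) and under each alternative (grey); each panel has its own linear axis. All values keep the sign of the reported one; Cd200r1 has its lowest value among scalings and tools at 1.10 under spike-in scaling, and Cd200 runs from -2.62 to -1.20 depending on which Mut-labelled library is left out.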

How the data were processed

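The deposited table held raw counts per gene, not normalised; per the submitters' processing notes the build was mm9 and the tools TopHat, featureCounts and edgeR, with no version or role given. The sources used here give neither strand nor annotation release. ERCC and ribosomal RNA entries (92 and 3 of 38086) were kept out of library totals and tests. GENCODE M21 gave symbols to 32919 of 37991 identifiers.

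Groups were compared separately for mRNA and for total RNA libraries in edgeR 4.0.16 (R 4.3.3): TMM, the tool's low-count filter, the two-sided quasi-likelihood test without a block, and Benjamini-Hochberg adjustment over all tested genes, called under 0.05. Interaction and kind of library were tested over all 8 libraries. The fit was tested on simulated data. Alternatives were DESeq2 1.42.0, other scalings, no filter, a replicate block, all 8 libraries in one fit, and each replicate left out.

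The members and gene lists were chosen with earlier results of these data known. Named genes were the 4 members, the called list genes (at most 6 per list), the 2 most abundant of each pathway list, the tested neighbours and the 5 nearest profiles. Of marker lists, sums and counts are given, with called genes named for mast cells, basophils, eosinophils and neutrophils. 1 called gene of the activating route is counted in its list but not reported here. Libraries of a group differed beyond sampling noise, since chi-square over its degrees of freedom was 70.0 (WT) and 65.4 (Mut-labelled) in mRNA and 3.33 and 2.79 in total RNA libraries. Promoter windows were aligned with Biopython 1.88.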

Additional observations from a re-analysis of the deposited data

How the results depend on the processing

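With 2 libraries a group, the number of genes called depended on the test and scaling. In the mRNA libraries 624 genes were called, against 170 under spike-in scaling, 1615 with DESeq2 and 2870 with the replicate number as a block. In the total RNA libraries 446 were called, against 724 without a low-count filter, 203 with DESeq2, 870 with the block and 273 in the fit of all 8 libraries. The interaction called 0 genes, 18 with DESeq2, 111 with the sorted sample as a block and 0 to 1 with 1 sorted sample left out; the kind of library called 2634, against 4895 with that block and 492 to 1292 with a sample left out. Same-numbered WT and Mut-labelled libraries deviated together over genes (r = 0.323 for mRNA, 0.220 for total RNA libraries), but with 2 pairs and no label on pairing they share only a number, and the block removes a residual degree of freedom.

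All 4 members kept their sign in the mRNA libraries, and the 3 fitted receptors in the total RNA libraries, under every alternative run. Spike-in scaling gave log2 fold changes of 1.10 for Cd200r1 and 4.98 for Cd200r4 in mRNA libraries, and 0.14, 4.71 and 3.37 for Cd200r1, Cd200r3 and Cd200r4 in total RNA libraries. Leaving out 1 library gave 1.25 to 1.61 for Cd200r1, 4.84 to 5.70 for Cd200r3, 5.21 to 5.56 for Cd200r4 and -2.62 to -1.20 for Cd200 in mRNA libraries. In total RNA libraries it gave 1.02 to 1.52, 4.93 to 8.17 and 3.40 to 7.56 for the receptors in that order. The upper ends for Cd200r3 and Cd200r4 rested on WT replicate 1, which had 0 counts of both. The interaction reversed with 1 sample left out, from -0.011 to 6.84 for Cd200r3, -1.69 to 6.24 for Cd200r4 and -0.89 to 1.40 for Cd200, and the difference between kinds ran from -4.01 to 0.00019 for Cd200r4 and from -0.44 to 0.74 for Cd200.

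Spike-in scaling, which lowered the median of all genes, reversed small values of uncalled genes: Rasa3 (-0.12), Csk (-0.25), Treml2 (-0.019), Laptm5 (-0.13), Gramd1c (-0.22), Gtpbp8 (-0.30), Slc35a5 (-0.37), Atg3 (-0.30), BC016579 (-0.072), Abhd10 (-0.20) and Phldb2 (-0.22). Among named list genes and neighbours, the members left aside, it ended 40 of 41 calls and kept that of Prss34. Leaving out 1 library reversed neighbours near 0: Gramd1c (-0.056 to 0.24), Usf3 (-0.34 to 0.18), Nepro (-0.43 to 0.027), Gtpbp8 (-0.10 to 0.13), Slc35a5 (-0.21 to 0.41), Atg3 (-0.092 to 0.25), BC016579 (-0.23 to 0.57), Abhd10 (-0.0082 to 0.27) and Plcxd2 (-0.51 to 0.072). Calls in the inhibitory route, activating route, other receptors, other ligands and neighbours (1, 5, 6, 5 and 1) came to 0 each under spike-in scaling, to 2, 9, 12, 7 and 3 with DESeq2 and to 3, 12, 13, 8 and 5 with the block. The cause of these differences was not tested.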
